A study of Mus musculus with 22 samples.

Results

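The genes followed here are 10 transcriptional regulators of early blood development, *Gfi1*, *Gfi1b*, *Spi1*, *Nfe2*, *Ikzf1*, *Myb*, *Kdm1a*, *Cebpa*, *Gata1* and *Klf1*. They were chosen by name, with earlier results of these data known, and are 10 of the 24454 gene symbols in the count table. RNA-seq was performed on 22 libraries of 25 cells each, sorted from the aorta-gonad-mesonephros (AGM) region of C57BL/6 mouse embryos, the region of the trunk where the first haematopoietic stem cells arise. All cells were sorted as positive for VE-cadherin, the adhesion protein that marks endothelium, and were split by their surface CD44 and Kit. No cells were treated or grown in culture, and no allele or transgene is named in the labels.

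The 10 CD44Neg libraries, labelled endothelial cells, came from E9.5 (4), E10 (3) and E11 (3), and the 6 CD44LowKitNeg libraries, labelled hemogenic endothelium, from the same stages (1, 2 and 3). The 3 CD44LowKitPos libraries came from E9.5 (1) and E10 (2) and were labelled precursors of haematopoietic stem and progenitor cells, and the 3 CD44High libraries, labelled stem and progenitor cells, all came from E11. How many embryos stand behind a library is not given in the sources used here, so the p-values measure the spread between libraries, which may be technical. The labels also carry a date that differs by stage, so stage and date cannot be told apart, and no stage holds both CD44LowKitPos and CD44High.

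During the endothelial to haematopoietic transition, flat cells of the aortic wall become round blood cells and leave the endothelial program. GFI1 and GFI1B are closely related zinc-finger repressors that silence endothelial genes in these cells by recruiting the histone demethylase LSD1, the product of *Kdm1a*, within the CoREST corepressor complex. *Spi1* encodes PU.1, an ETS factor needed for myeloid and lymphoid cells, *Ikzf1* encodes the zinc-finger factor Ikaros, and *Myb* encodes a factor needed for definitive blood progenitors. *Nfe2* encodes the large subunit of a factor that works with small MAF proteins in platelet and red cell precursors. GATA1 and KLF1 drive red cell genes, GATA1 also those of megakaryocytes, and C/EBPα, from *Cebpa*, drives granulocyte and monocyte genes.

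Promoters were looked at because the members include both the repressors and the genes that such factors are known to bind. For 8 of the 10 members the RefSeq table for GRCm38.p6 held a start site, and the 250 bases before it were searched on both strands for short motifs of 6 families of factors (RUNX, PU.1, GATA, GFI1, KLF and NFE2). *Spi1* and *Nfe2* had no entry. The 4 windows with a match are shown 5′ to 3′ on the gene's strand, and capitals mark the matches.
Gfi1b, chr2:28621983-28622232, minus strand: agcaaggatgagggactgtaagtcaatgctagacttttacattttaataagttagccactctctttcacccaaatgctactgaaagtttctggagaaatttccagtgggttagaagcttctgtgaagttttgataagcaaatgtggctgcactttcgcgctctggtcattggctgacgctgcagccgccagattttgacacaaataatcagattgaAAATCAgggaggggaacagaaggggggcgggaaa
Ikzf1, second start, chr11:11689927-11690176, plus strand: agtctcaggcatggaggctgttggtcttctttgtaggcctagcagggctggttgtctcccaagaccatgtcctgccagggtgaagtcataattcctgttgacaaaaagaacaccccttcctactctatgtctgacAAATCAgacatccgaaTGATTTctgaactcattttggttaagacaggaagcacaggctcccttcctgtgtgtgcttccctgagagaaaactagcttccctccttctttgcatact
Gata1, chrX:7967911-7968160, minus strand: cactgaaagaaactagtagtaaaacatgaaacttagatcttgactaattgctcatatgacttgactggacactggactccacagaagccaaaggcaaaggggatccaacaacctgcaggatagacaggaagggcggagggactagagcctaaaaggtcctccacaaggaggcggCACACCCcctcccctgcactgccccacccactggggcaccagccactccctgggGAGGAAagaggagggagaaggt
Klf1, chr8:84901732-84901981, plus strand: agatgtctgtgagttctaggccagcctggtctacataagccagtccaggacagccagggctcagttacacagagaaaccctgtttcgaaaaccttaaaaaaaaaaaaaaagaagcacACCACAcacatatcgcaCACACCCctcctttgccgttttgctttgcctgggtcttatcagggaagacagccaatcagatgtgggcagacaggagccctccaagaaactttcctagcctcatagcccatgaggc

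The *Gfi1b* window held the GFI1 motif, AAATCA, 34 bases before the start site, and the window before the second start of *Ikzf1* held it 115 bases before it and, on the other strand, at 99. This motif is found in 12.4% of all 32851 windows of this length in the table. The *Gata1* window held the KLF motif, CACACCC, at 76 bases and the PU.1 motif, GAGGAA, at 22 bases before the start, and these are found in 6.93% and 23.3% of all windows. In the *Klf1* window the KLF motif lay at 116 bases, and the RUNX motif, TGTGGT, which 14.0% of all windows hold, lay on the other strand at 133. The letters AGATAA, the only form of the GATA motif searched, and the NFE2 motif, TGAGTCA, were in no member's window. They were in 9.99% and 4.46% of all windows. Other forms, such as TGATAA in the *Gfi1b* window and, on the other strand, in the *Klf1* window, were not searched. None of the motifs was in the windows of *Cebpa*, *Kdm1a*, *Myb*, the first start of *Ikzf1* or either start of *Gfi1*. The motifs do not overlap each other in the windows shown. A match of letters describes the window and shows no binding.

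Library totals ran from 3912350 to 8657546 counts (median 5758382.5). Values are given as CPM, the counts scaled to a common library size with edgeR's TMM factors (normalized CPM), with the SD between libraries. Where a gene had a count of 0, up to 3 counts could have been missed, or 0.348 to 0.816 normalized CPM here. Molecular identifiers were not used, so such limits describe counting error and nothing else. The CD44 and Kit sort was seen in the RNA, with 2.14 to 58.9 normalized CPM of *Cd44* in CD44Neg and 158 to 354 in the 3 other populations, and 173 to 270 of *Kit* in CD44LowKitPos against 19.6 to 69.4 in CD44LowKitNeg. *Cdh5*, which encodes VE-cadherin, was at 0 counts in all 3 CD44High libraries although these cells were sorted as positive for the protein. The summed level of 11 macrophage markers was 3760 to 6086 normalized CPM in CD44High, where all 11 had counts, against 168 to 230 in CD44LowKitPos, where *C1qa*, *C1qb*, *C1qc*, *Adgre1* and *Timd4* were at 0. In these bulk samples, fewer cells of a type and less RNA per cell cannot be told apart.

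The plot of member levels by library shows which members had counts in which population, as a description. Of the 10 members, CD44Neg libraries held 1 to 4 above 3 counts, CD44LowKitNeg libraries 3 to 6, CD44LowKitPos libraries 7 to 9 and CD44High libraries 8 or 9. *Kdm1a* was counted in all 22 libraries. *Gfi1*, *Spi1* and *Nfe2* were above 3 counts in at least 5 of the 6 CD44LowKitNeg libraries, and *Gfi1b* first passed this level in CD44LowKitPos, in 3 of 3 libraries. *Klf1* passed it only in the 3 CD44High libraries, *Gata1* in these and in CD44LowKitPos replicate 17, and *Cebpa* in 2 of them and in the same replicate 17.

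**Figure D1:**
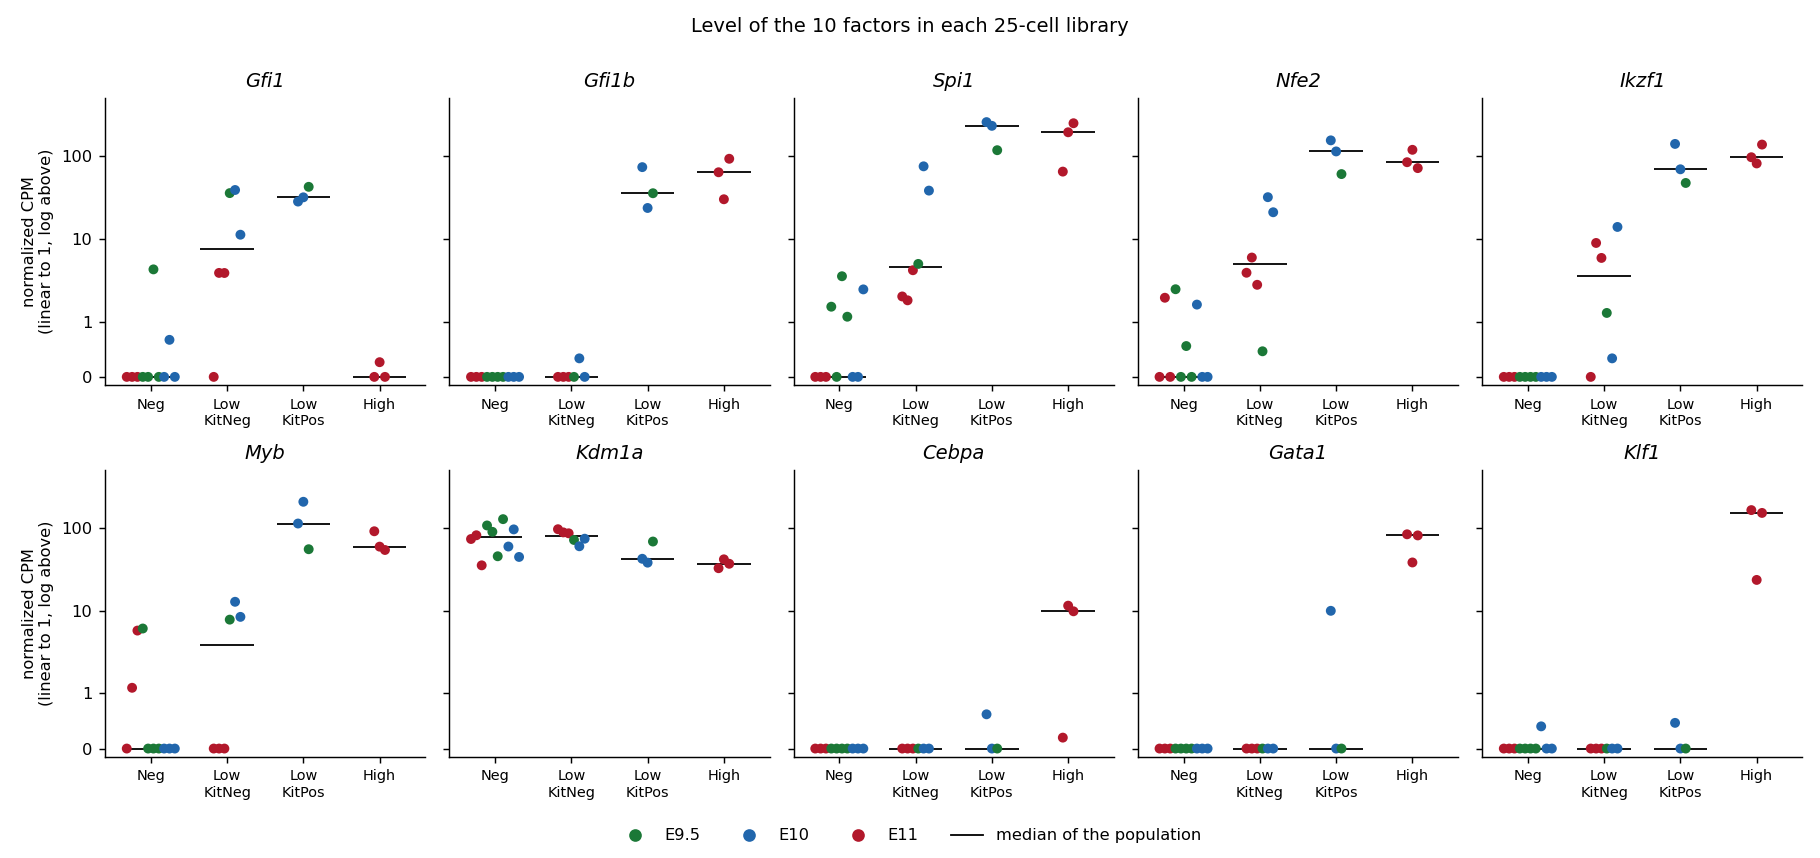
Level of each of the 10 members in each of the 22 libraries, in normalized CPM, by population. The axis is linear for the lowest values and log above. *Kdm1a* stands at 32.5 to 127 throughout, *Gfi1b* lies at or below 0.336 in all CD44Neg and CD44LowKitNeg libraries and at 23.6 to 92.8 in the others, and *Gfi1* lies at 28.2 to 42.5 in CD44LowKitPos and at no more than 0.266 in CD44High.

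*Gfi1*, a zinc-finger repressor, lies at chr5:107716657-107726036 on the minus strand (GRCm38, GENCODE vM21 as for all positions below). In CD44Neg it ranged from 0 to 4.28 normalized CPM with a median of 0, and 2 of 10 libraries had counts. In CD44LowKitNeg it stood at 35.7 at E9.5, at 38.9 and 11.2 at E10, and at 0, 3.88 and 3.87 at E11. The highest 3 CD44LowKitNeg libraries were thus the 3 earlier ones, and the groups overlapped only through the E11 libraries. In CD44LowKitPos it was at 28.2, 31.8 and 42.5, and in CD44High at 0, 0.266 and 0, the 0.266 being 1 count. All 3 CD44High libraries lay below all 3 CD44LowKitPos libraries.

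*Gfi1b*, which lies at chr2:28609450-28621982 on the minus strand, was at 0 in all 10 CD44Neg libraries. Of the 6 CD44LowKitNeg libraries, 5 were at 0 and replicate 15 had 2 counts (0.336 normalized CPM). The 3 CD44LowKitPos libraries had 73.5, 23.6 and 35.6 normalized CPM, and the 3 CD44High libraries 63.7, 30.1 and 92.8. CD44LowKitPos and CD44High overlapped with each other, and both lay far above the other populations.

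*Gfi1* thus had counts in CD44LowKitNeg, where *Gfi1b* had next to none, and was near 0 in CD44High, where *Gfi1b* was at its level of CD44LowKitPos. A ratio within a library does not depend on library scaling, so the share of *Gfi1* among the summed counts of *Gfi1* and *Gfi1b* was taken. In the 5 CD44LowKitNeg libraries with counts of either gene, this share was 99.1% to 100%. In CD44LowKitPos it was 27.7% (95% Clopper-Pearson interval 24.3 to 31.3), 57.3% (52.4 to 62.2) and 54.4% (50.04 to 58.8), and in CD44High 0% (upper bound 1.14), 0.877% (0.0222 to 4.79) and 0% (upper bound 1.08). The intervals cover counting error only.

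The mean share was 46.5% ± 16.3 (SD, n = 3) in CD44LowKitPos and 0.292% ± 0.506 (n = 3) in CD44High, and the groups did not overlap. The share was chosen with the levels of both genes known, so their difference of 46.2 percentage points is given as a description, with no test. It was 33.9 points when both genes were taken per kilobase of exon, and 40.8 to 55.6 points when each of the 6 libraries was left out in turn. Per kilobase, the level of *Gfi1* in CD44LowKitPos was 10.7 ± 2.34 normalized CPM and that of *Gfi1b* 24.2 ± 14.2 (both n = 3).

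**Figure D2:**
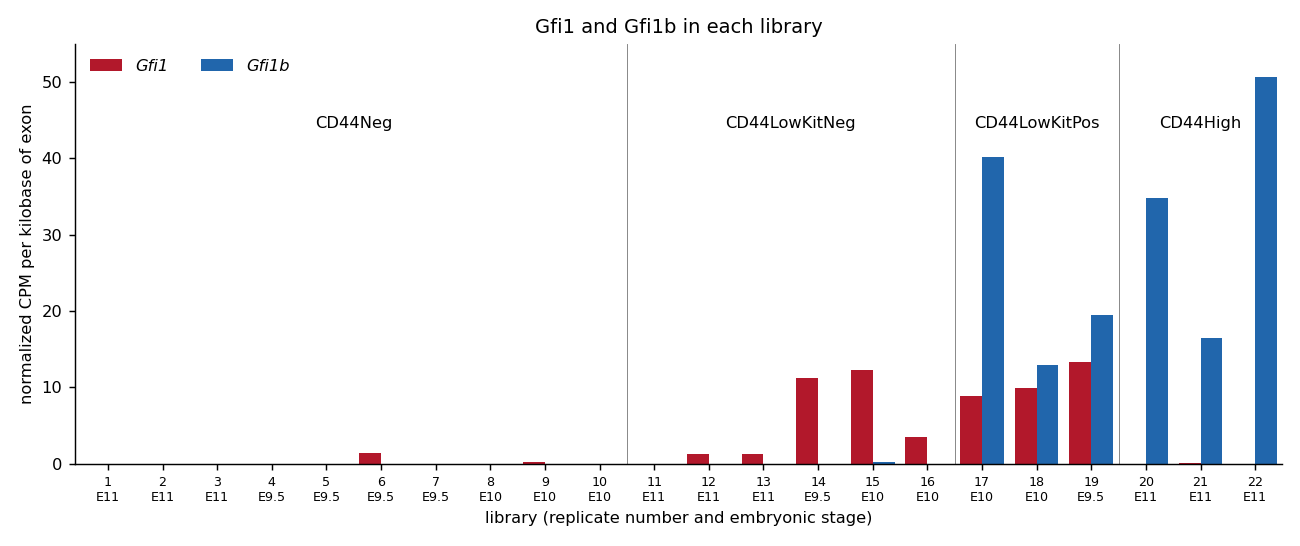
Normalized CPM per kilobase of exon of *Gfi1* and *Gfi1b* in each library. *Gfi1* lies at 8.86 to 13.3 in CD44LowKitPos and at no more than 0.0836 in CD44High. *Gfi1b* lies at 12.9 to 40.2 in CD44LowKitPos and at 16.4 to 50.7 in CD44High.

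*Kdm1a*, which encodes the demethylase LSD1 that the GFI1 proteins recruit, lies at chr4:136550540-136602723 on the minus strand. It ranged from 35.2 to 127 normalized CPM in CD44Neg (median 77.1), and its 6 CD44LowKitNeg values lay between 59.7 and 96.0 (median 79.7). The CD44LowKitPos libraries had 42.2, 37.9 and 68.1 and the CD44High libraries 32.5, 41.5 and 36.7. CD44High lay below all CD44LowKitNeg libraries and overlapped with CD44Neg and CD44LowKitPos. This was the only member whose group means were highest in the endothelial populations, at 75.7 ± 29.8 (n = 10) and 79.0 ± 13.2 (n = 6), against 49.4 ± 16.4 and 36.9 ± 4.54 (both n = 3).

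*Spi1* (chr2:91082390-91115756, plus strand), the gene of PU.1, was at 0 to 3.54 normalized CPM in CD44Neg, with counts in 4 of 10 libraries. In CD44LowKitNeg it was at 4.98 at E9.5, at 75.2 and 38.3 at E10, and at 2.02, 1.81 and 4.18 at E11. All 6 libraries had counts, and both E10 libraries stood far above the other 4. In CD44LowKitPos it was at 257, 232 and 118 and in CD44High at 64.9, 194 and 249, with overlapping ranges. Its mean per kilobase of exon in CD44LowKitPos, 75.0 ± 27.6, was above those of *Nfe2* (36.7 ± 15.8), *Gfi1b* (24.2 ± 14.2), *Ikzf1* (14.8 ± 8.40), *Myb* (13.9 ± 8.52), *Gfi1* (10.7 ± 2.34) and *Kdm1a* (9.54 ± 3.16), all n = 3 and all in normalized CPM per kilobase. The ranges of the last 5 of these overlapped, and no test between genes was run. Within each CD44LowKitPos library *Gfi1b* stood above *Gfi1* (40.2 against 8.86, 12.9 against 9.96 and 19.4 against 13.3). It also stood above *Kdm1a* in each (8.15, 7.32 and 13.2).

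*Nfe2* (chr15:103248212-103258403, minus strand), the large NF-E2 subunit, was at 0 to 2.46 normalized CPM in CD44Neg, with counts in 4 of 10 libraries. In CD44LowKitNeg it was at 0.464 at E9.5, at 31.9 and 20.97 at E10, and at 3.90, 5.95 and 2.79 at E11, so that all 6 libraries had counts and the 2 E10 libraries were again highest. It was at 155, 114 and 60.6 in CD44LowKitPos and at 84.3, 119 and 71.6 in CD44High, and these ranges overlapped.

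*Ikzf1* (chr11:11685003-11772926, plus strand), the gene of Ikaros, was at 0 in all 10 CD44Neg libraries. In CD44LowKitNeg it was at 1.28 at E9.5, at 0.336 and 13.9 at E10, and at 0, 8.93 and 5.89 at E11, with no order by stage. It was at 140, 69.2 and 47.3 in CD44LowKitPos and at 96.8, 81.5 and 138 in CD44High, both above every CD44LowKitNeg library.

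*Myb* (chr10:21124935-21160984, minus strand), needed for definitive progenitors, was at 0 in 7 of 10 CD44Neg libraries and at 1.17, 5.73 and 6.07 in the others. In CD44LowKitNeg it was at 7.77 at E9.5, at 12.8 and 8.39 at E10, and at 0 in all 3 libraries of E11. The 3 earlier libraries thus lay above every CD44Neg library and the 3 later ones had none. It was at 112, 206 and 55.03 in CD44LowKitPos and at 90.7, 59.1 and 53.9 in CD44High.

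The red cell and granulocyte factors were seen mainly in CD44High. *Gata1* (chrX:7959260-7978071, minus strand) was at 0 in all 16 CD44Neg and CD44LowKitNeg libraries, at 9.93, 0 and 0 normalized CPM in CD44LowKitPos and at 83.3, 38.1 and 80.8 in CD44High. *Klf1* (chr8:84901928-84905291, plus strand) was at 163, 23.4 and 151 in CD44High, and elsewhere had 2 counts in CD44Neg replicate 8 and 3 counts in CD44LowKitPos replicate 17. CD44High lay above all other libraries for both genes. *Klf1* passed the filter on low counts through the 3 CD44High libraries alone, *Gata1* through these and 1 CD44LowKitPos library, and *Gfi1b* through the CD44LowKitPos and CD44High libraries. Since they passed through the populations where they are high, their calls in any comparison with CD44LowKitPos or CD44High are given as a description, and nothing is read from a count of members that includes them.

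*Cebpa* (chr7:35119293-35121928, plus strand), the factor of granulocytes and monocytes, had 4 counts in CD44LowKitPos replicate 17 and 1, 43 and 36 counts in the CD44High libraries, which is 0.620 and 0.198, 11.4 and 9.79 normalized CPM. It was at 0 in the other 18 libraries. CD44High replicate 20, which was lowest for *Cebpa*, was highest for *Klf1* and *Gata1*. With all 22 libraries *Cebpa* did not pass the filter on low counts, since only 2 libraries reached its level and 3 were needed, and its values with no filter, given with CD44High below, are a description too, since CD44High alone reached that level.

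The question of the first comparison was which members separate CD44LowKitNeg from CD44Neg, the 2 populations with an endothelial profile. *Spi1* was higher in CD44LowKitNeg, at 21.1 ± 30.0 normalized CPM (n = 6) against 0.866 ± 1.28 (n = 10), by a log2 fold change of 4.56 (SE 1.13, edgeR adjusted p = 0.00726). Here and below, this p comes from the quasi-likelihood test of edgeR, adjusted by the Benjamini-Hochberg method over all genes tested. A gene with a value under 0.01 was called, and SE is the standard error of the log2 fold change. *Gfi1* (4.90, SE 1.32, edgeR adjusted p = 0.0120) and *Nfe2* (4.02, SE 1.15, edgeR adjusted p = 0.0175) had fold changes of similar size and edgeR adjusted p above 0.01, and *Kdm1a* differed by 0.07 (SE 0.25, edgeR adjusted p = 0.885). In this comparison 1 of the 4 members that passed the filter was called, against 10.2% of all 11022 genes tested.

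*Spi1* was no longer called without any one of 9 libraries, with edgeR adjusted p up to 0.0495. These were CD44Neg replicates 1, 2, 3, 4, 5, 7 and 8 and CD44LowKitNeg replicates 15 and 16. With the E11 libraries alone no member was called, and *Spi1*, at 0 in CD44Neg of that stage, had 6.96 (edgeR adjusted p = 0.0470). Its fold change was 3.56 without CD44LowKitNeg replicate 15, the library with 75.2 normalized CPM, and 5.18 without CD44Neg replicate 6. *Gfi1* was called without CD44LowKitNeg replicate 11, where it was at 0 (edgeR adjusted p = 0.00637), with stage as a covariate (0.00251) and in a fit of all 22 libraries (0.00495). *Nfe2* was called in the fit of all 22 libraries (edgeR adjusted p = 0.00142), with the libraries of E9.5 and E10 alone (0.00567) and by DESeq2's Wald test (adjusted p = 0.00366). *Ikzf1*, which did not pass the filter of this comparison, was at least 8.35-fold higher in CD44LowKitNeg when CD44Neg is set at 3 counts per library, and at least 5.42-fold without CD44LowKitNeg replicate 16.

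All 3 CD44LowKitPos libraries are from E9.5 or E10, while 3 of the 6 CD44LowKitNeg libraries are from E11. Between CD44LowKitNeg and CD44LowKitPos, where the cells gain Kit, 5 members had no overlap between the groups, *Gfi1b*, *Spi1*, *Nfe2*, *Ikzf1* and *Myb*, all higher in CD44LowKitPos, as were 9.55% of all 12949 genes tested. *Gfi1b* was the 1 called member, of 9 tested, against 4.26% of all 12949 genes. Its level ratio was 940, with a counting interval of 259 to 7772 that rests on the 2 counts of CD44LowKitNeg replicate 15, and its edgeR adjusted p was 9.7e-05. Without CD44LowKitPos replicate 17 its log2 fold change was 8.70 in place of 9.32, and without CD44LowKitNeg replicate 15 CD44LowKitNeg was at 0.

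The other members of this step were above 0.01 with edgeR, while DESeq2's Wald test also called *Ikzf1* (3.93, adjusted p = 0.00324). *Myb* differed by 4.69 (SE 1.36, edgeR adjusted p = 0.0254), *Ikzf1* by 4.07 (SE 0.96, 0.0129), *Nfe2* by 3.32 (SE 0.95, 0.0230) and *Spi1* by 3.27 (SE 0.98, 0.0299), all on the log2 scale. *Spi1* was called without CD44LowKitNeg replicate 15 (4.22, edgeR adjusted p = 0.00892). *Gfi1* differed by 1.13 (SE 1.40, edgeR adjusted p = 0.662) and *Kdm1a* by −0.68 (SE 0.34, edgeR adjusted p = 0.208). With the CD44LowKitNeg libraries of E9.5 and E10 alone, the log2 differences were 2.36 for *Spi1*, 2.63 for *Nfe2*, 3.69 for *Myb*, 4.04 for *Ikzf1* and 0.26 for *Gfi1*, with edgeR adjusted p from 0.0917 to 0.965, *Gfi1b* was again the 1 member called (0.00662), and 64 genes were called in place of 552. *Gata1* was at least 7.90-fold higher, and this bound rests on CD44LowKitPos replicate 17 alone. In this step 6 of 9 endothelial markers were called lower (median −2.36) and 1 of 10 tested macrophage markers higher, where 4.26% of all genes were called. The endothelial sum was 4332 to 9896 normalized CPM in CD44LowKitNeg and 1060 to 2296 in CD44LowKitPos. The macrophage sum was 0 to 72.4 and then 168 to 230. The part of these in the differences was not tested. The median of all genes was −0.02 on the log2 scale with TMM and −0.16 with DESeq2's size factors, which moved the calls over all genes from 330 higher and 222 lower to 218 higher and 273 lower.

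Against CD44Neg, the same CD44LowKitPos libraries had 6 called members of 9 tested, all higher, against 3.48% of all genes. This comparison and the one before share the CD44LowKitPos libraries. *Spi1* was higher by 7.80 (SE 0.97, edgeR adjusted p = 2.0e-05), *Nfe2* by 7.32 (SE 0.92, 2.1e-05), *Myb* by 6.50 (SE 1.20, 0.00128) and *Gfi1* by 6.03 (SE 1.28, 0.00403) on the log2 scale. *Ikzf1* was at least 141-fold higher (edgeR adjusted p = 4.0e-05) and *Gfi1b* at least 73.0-fold higher (7.2e-06). For all 6 genes every CD44LowKitPos library lay above every CD44Neg library, as it did for 5.29% of all genes tested.

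*Gfi1* was no longer called in this comparison without CD44LowKitPos replicate 17 (edgeR adjusted p = 0.0138) or 18 (0.0155), and its log2 fold change rose to 8.57 without CD44Neg replicate 6. *Myb* was no longer called without CD44LowKitPos replicate 18 (edgeR adjusted p = 0.0141), and was at 7.19 and 7.17 without CD44Neg replicates 3 and 4. Nor was *Myb* called with stage as a covariate (edgeR adjusted p = 0.0294) or by DESeq2's Wald test (adjusted p = 0.0291). No CD44LowKitPos library is from E11, and with the libraries of E9.5 and E10 alone *Gfi1* was not called (edgeR adjusted p = 0.0116). The log2 fold change of *Spi1* was 8.39 without CD44Neg replicate 6, and the bound of *Gfi1b* was 48.8-fold without CD44LowKitPos replicate 17. *Kdm1a* differed by −0.62 (SE 0.32, edgeR adjusted p = 0.296). *Gata1* was at least 5.46-fold higher through CD44LowKitPos replicate 17 alone (edgeR adjusted p = 0.0219), and was called without replicate 19 (0.00798).

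**Figure D3:**
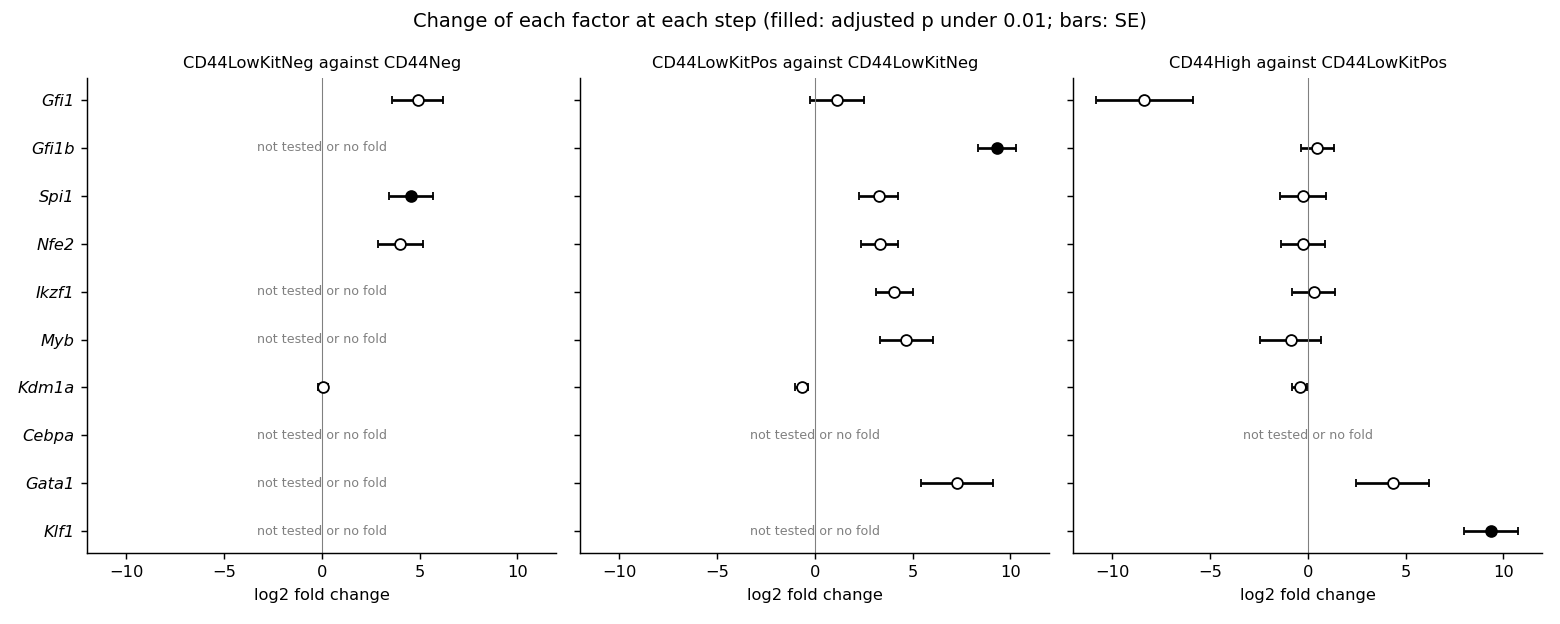
Log2 fold change of each tested member with its standard error at the successive steps between populations, with called members marked. *Spi1* rises by 4.56 at the first step, *Gfi1b* is the called member of the second and *Klf1* that of the third.

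Between CD44LowKitPos and CD44High, *Gfi1* was near 0 in the second population, *Klf1* and *Gata1* were low in the first, and the other tested members had overlapping levels. *Klf1* was called, 1 of 9 members tested against 3.01% of all genes, with a level ratio of 807 (counting interval 275 to 3916, on 3 counts in CD44LowKitPos) and an edgeR adjusted p of 1.8e-04. *Gfi1* was lower in CD44High by a level ratio of 426 (counting interval 76.2 to 16845, on 1 count), and its edgeR adjusted p was 0.0459. DESeq2's Wald test called *Gfi1* (−8.56, adjusted p = 0.00588) and not *Klf1* (adjusted p = 0.0684). The ratio of *Gfi1* was 254 without CD44High replicate 20, and *Gfi1* was called without CD44Neg replicate 6 (edgeR adjusted p = 0.00975), which shares in the fit's estimate of spread. The ratio of *Klf1* was 513 without CD44LowKitPos replicate 18, and its fitted log2 fold change was 12.32 in place of 9.36 without replicate 17, the library with its 3 counts. With stage as a covariate *Klf1* was not called (edgeR adjusted p = 0.0455), and the fitted log2 fold change of *Gfi1* was −4.72 (0.314) in place of −8.36.

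*Gata1* did not overlap between the groups and differed by 4.34 (SE 1.86, edgeR adjusted p = 0.256), and was called without CD44LowKitPos replicate 17 (0.00971). The other members had log2 differences of 0.49 (SE 0.86) for *Gfi1b*, 0.30 (SE 1.103) for *Ikzf1*, −0.26 (SE 1.16) for *Spi1*, −0.26 (SE 1.12) for *Nfe2*, −0.42 (SE 0.39) for *Kdm1a* and −0.87 (SE 1.56) for *Myb*, with edgeR adjusted p from 0.669 to 0.967. Standard errors near 1 leave changes of several fold in either direction undetectable here for these members other than *Kdm1a*. With stage as a covariate the differences of *Spi1*, *Nfe2* and *Myb* turned to 3.71, 0.96 and 0.12, with edgeR adjusted p from 0.0606 to 1. All CD44High libraries are from E11 and no CD44LowKitPos library is, so this step and the stage cannot be told apart. *Rn45s*, a pre-ribosomal RNA, took 6.82% to 9.26% of the counts in CD44LowKitPos and 16.6% to 23.9% in CD44High. The summed level of mesenchyme markers was at most 4.67 normalized CPM in CD44LowKitPos and 165, 107 and 0.272 in CD44High, with none of 4 tested markers called. The 9 endothelial markers were all lower in CD44High (median log2 difference −5.77), with sums of 71.5 to 157 normalized CPM against 1060 to 2296. Of 10 tested macrophage markers, 6 were higher and none lower. The median of the 10 was 9.42, or 7.71 with markers that had no counts in CD44LowKitPos at their bound. The part of any of these in the differences was not tested.

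CD44High was also compared with both endothelial populations. Against CD44LowKitNeg, 4 of 9 members tested were called, all higher, against 16% of all genes. *Gfi1b* had a level ratio of 1355 (counting interval 374 to 11211, edgeR adjusted p = 3.5e-06), *Ikzf1* a log2 fold change of 4.37 (SE 0.96, edgeR adjusted p = 0.00348), *Klf1* was at least 269-fold higher (edgeR adjusted p = 4.0e-07) and *Gata1* at least 161-fold higher (edgeR adjusted p = 0.00169). *Ikzf1* was not called without CD44High replicate 20 (edgeR adjusted p = 0.0109) or 22 (0.0167), and the fitted value of *Gfi1b* was 11.44 in place of 9.81 without CD44LowKitNeg replicate 15. *Cebpa* was at least 17.1-fold higher, and *Gfi1* was lower by a level ratio of 194 (34.7 to 7678, edgeR adjusted p = 0.0247), or of 116 without CD44High replicate 20. *Gfi1* was called without CD44Neg replicate 6 (edgeR adjusted p = 0.00545). Its fitted log2 difference was −4.64 (edgeR adjusted p = 0.1002) against the E11 libraries of CD44LowKitNeg alone and −4.56 (0.0832) with stage as a covariate, in place of −7.23. *Kdm1a* differed by −1.098 on the log2 scale (SE 0.35, edgeR adjusted p = 0.0233), with every CD44High library below every CD44LowKitNeg library. DESeq2's Wald test called 5 members here, 3 higher and 2 lower, and the 2 lower were *Kdm1a* (−1.18, adjusted p = 0.00363) and *Gfi1* (adjusted p = 0.00250). *Nfe2* (3.06, SE 0.95, edgeR adjusted p = 0.0182), *Spi1* (3.01, SE 0.98, 0.0246) and *Myb* (3.82, SE 1.33, 0.0361) missed the threshold, while *Spi1* (0.00495) and *Nfe2* (0.00834) were called without CD44LowKitNeg replicate 15. All CD44High libraries are from E11, and against the E11 libraries of CD44LowKitNeg alone *Spi1* (5.99, edgeR adjusted p = 2.65e-04), *Nfe2* (4.43, 0.00923) and *Myb* (6.86e-04, with CD44LowKitNeg at 0) were called. With stage as a covariate *Spi1* (6.09, edgeR adjusted p = 3.2e-05) and *Nfe2* (4.16, 0.00624) were called and *Myb* was not (0.0751). *Ikzf1* was not called against the E11 libraries alone (edgeR adjusted p = 0.0193) or with stage as a covariate (0.0186), and *Gata1* was not called by DESeq2's Wald test (adjusted p = 0.0606).

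Against CD44Neg, 7 of 9 members tested were called, all higher in CD44High, against 14.4% of all genes. They were *Spi1* (7.54, SE 0.96, edgeR adjusted p = 3.0e-06), *Nfe2* (7.06, SE 0.91, 3.4e-06), *Myb* (5.63, SE 1.19, 9.99e-04), and *Gfi1b*, *Ikzf1*, *Gata1* and *Klf1*. *Gfi1b* was at least 103-fold, *Ikzf1* at least 174-fold and *Gata1* at least 111-fold higher (edgeR adjusted p = 2.5e-07, 3.4e-06 and 4.8e-04), and *Klf1* had a level ratio of 3005 with a counting interval of 830 to 24835 (edgeR adjusted p = 5.1e-08). All CD44High libraries are from E11. Against the E11 libraries of CD44Neg alone, *Myb* (edgeR adjusted p = 0.0270) and *Gata1* (0.0165) were not called. Neither was called by DESeq2's Wald test (adjusted p = 0.0348 and 0.0567). *Cebpa* was at least 11.8-fold higher. With no filter on low counts *Cebpa* was called (edgeR adjusted p = 0.00469), as it was without CD44High replicate 20 or any 1 CD44LowKitPos library, fits in which it passed the filter (0.00746 to 0.00893), while DESeq2's Wald test gave an adjusted p of 0.0717. The log2 fold change of *Spi1* was 8.13 without CD44Neg replicate 6, that of *Myb* 6.31 and 6.29 without CD44Neg replicates 3 and 4, and that of *Klf1* 12.32 without CD44Neg replicate 8. *Kdm1a* differed by −1.04 (SE 0.34, edgeR adjusted p = 0.0270), and DESeq2's Wald test called it lower (−1.02, adjusted p = 0.00935).

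Within CD44LowKitNeg, the 3 libraries of E9.5 and E10 stood above the 3 of E11 for *Gfi1*, *Spi1* and *Myb*, with no overlap, as the plot of CD44LowKitNeg by stage shows. Over all genes tested, 11.9% were lower at E11 without overlap and 10.4% higher. *Gfi1* was at 28.6 ± 15.1 normalized CPM in the earlier libraries and 2.58 ± 2.24 at E11, *Spi1* at 39.5 ± 35.1 and 2.67 ± 1.31, and *Myb* at 9.64 ± 2.72 and 0 (n = 3 each). *Kdm1a* was the reverse, at 68.2 ± 7.44 and 89.8 ± 5.44 without overlap, while *Nfe2* (17.8 ± 15.95 and 4.21 ± 1.60) and *Ikzf1* overlapped.

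None of the 9 members tested was called between these stages with edgeR, against 1.2% of all genes. *Spi1* differed by −3.88 (SE 0.98, edgeR adjusted p = 0.0300), *Gfi1* by −3.46 (SE 1.66, 0.275), *Nfe2* by −2.06 (SE 1.13, 0.348), *Kdm1a* by 0.40 (SE 0.38, 0.661) and *Ikzf1* by −0.07 (SE 1.16, 1). Without CD44LowKitNeg replicate 15 *Spi1* differed by −3.03 and *Nfe2* by −1.35, and without replicate 11 *Gfi1* by −2.88 (edgeR adjusted p = 0.127, 0.670 and 0.444). *Myb* was at least 23.0-fold lower at E11 (edgeR adjusted p = 0.0322), and was called without CD44Neg replicate 4 (0.00535). DESeq2's Wald test called 1 member, *Spi1* (adjusted p = 0.00420). Over all genes, 2356 had an unadjusted p under 0.05 and DESeq2 called 501.

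*Runx1*, the factor that starts the transition and acts upstream of *Gfi1*, *Gfi1b* and *Spi1*, changed with stage in the same libraries. It was at 54.7, 129 and 44.8 normalized CPM in the E9.5 and E10 libraries and at 0 in all 3 of E11 (edgeR adjusted p = 0.00201). *Runx1* was the only 1 called of the list of 10 regulators given below, where 1.2% of all genes were called. The median log2 difference of that list was 0.59, against −0.01 over all genes, so the list as a whole did not fall at E11. The E11 libraries with no *Runx1* were also those with no *Myb* and the lowest *Gfi1* and *Spi1*, and they still had 2.79 to 5.95 normalized CPM of *Nfe2*. In CD44Neg, *Runx1* was at 0 in all 3 E11 libraries and at up to 21.4 in the earlier ones. The summed level of 9 endothelial markers was 4332, 4363 and 5668 normalized CPM in the CD44LowKitNeg libraries of E9.5 and E10 and 9896, 8523 and 8121 in those of E11, without overlap. That of the 11 macrophage markers was 72.4, 40.3 and 28.9 in the earlier libraries and 9.95, 0 and 7.13 at E11, and that of the mesenchyme markers 2.03 to 5.56 and then 26.6 to 59.6. *Rn45s* took 7.29%, 9.71% and 11.1% of the counts in the earlier libraries and 17.4%, 18.6% and 19.2% at E11. The part of these in the stage differences of the members was not tested.

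**Figure D4:**
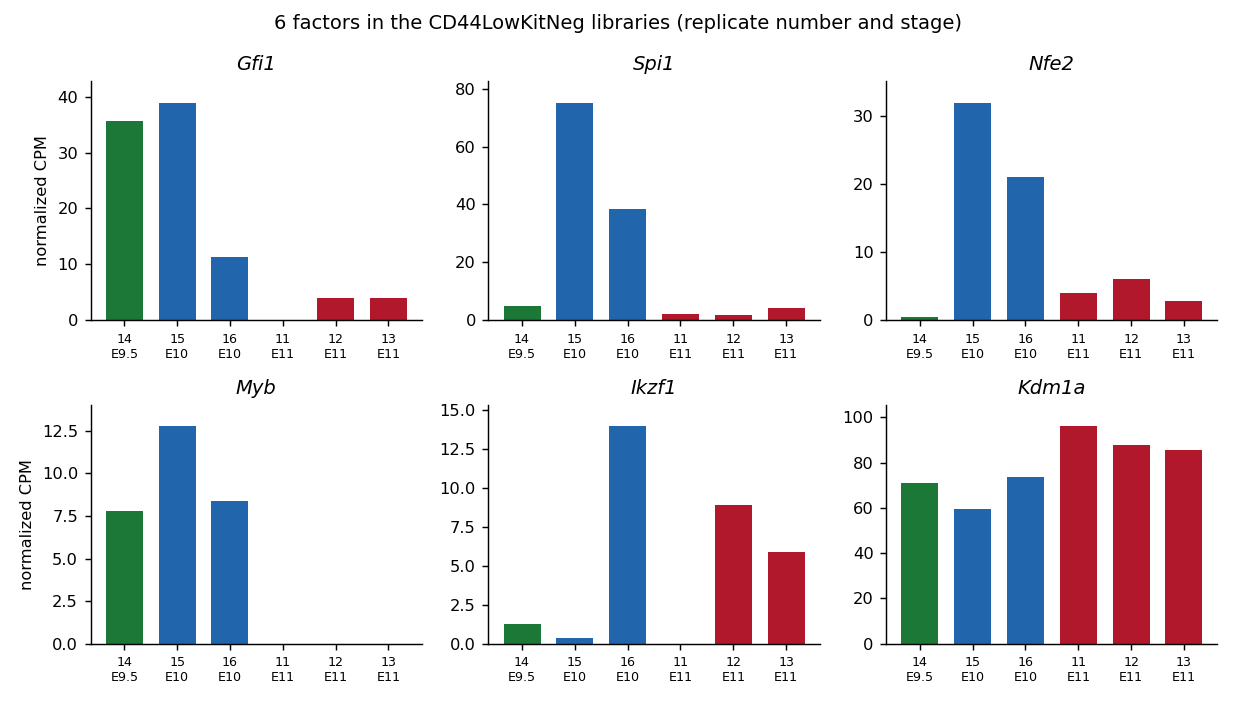
Normalized CPM of *Gfi1*, *Spi1*, *Nfe2*, *Myb*, *Ikzf1* and *Kdm1a* in the 6 CD44LowKitNeg libraries by stage. The 3 libraries of E11 lie below the 3 of E9.5 and E10 for *Gfi1*, *Spi1* and *Myb*, and above them for *Kdm1a*.

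In CD44Neg the comparison of the same stages called no member of 9 with edgeR, against 0.00772% of all genes, with 1169 genes at an unadjusted p under 0.05 and 39 called by DESeq2. The test of whether the population difference depends on stage also called no member, against 0.0849% of all genes, with 1273 genes at an unadjusted p under 0.05 and 73 called by DESeq2. For *Myb* the edgeR adjusted p of this test was 0.116, and *Myb* was called without CD44Neg replicate 4 (0.00252). In CD44Neg it was at 0, 1.17 and 5.73 at E11 and at 6.07 in 1 of 7 earlier libraries and 0 in the others.

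The partners through which the GFI1 proteins repress were measured with their own list, 11 genes of the CoREST complex. Between CD44Neg and CD44LowKitNeg, 2 of the 11 rose and none fell, where 10.2% of all genes were called, with a list median of 0.60 on the log2 scale against 0.01 over all genes. *Zmym2* rose from 77.8 ± 21.4 to 164 ± 33.8 normalized CPM (edgeR adjusted p = 8.21e-04) and *Hdac2*, a histone deacetylase, from 119 ± 27.8 to 211 ± 46.0 (edgeR adjusted p = 0.00219). No CoREST gene was called in CD44LowKitPos against CD44LowKitNeg, where 4.26% of all genes were, or against CD44Neg, where 3.48% were. Between CD44LowKitPos and CD44High none was called either, where 3.01% of all genes were, and the list median was −0.63 against −0.02 over all genes. *Hmg20b* was at 14.7 ± 5.16 in CD44High, lower than in CD44LowKitNeg (38.9 ± 8.68, edgeR adjusted p = 0.00462) and CD44Neg (50.6 ± 14.3, edgeR adjusted p = 4.53e-04), and *Hdac1* was lower than in CD44Neg by 0.82 on the log2 scale (−0.82, SE 0.19, edgeR adjusted p = 0.00200).

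Of 10 haematopoietic regulators that act before or beside the members, 2 rose from CD44Neg to CD44LowKitNeg, *Gata2* (1.60, SE 0.31, edgeR adjusted p = 0.00101) and *Lyl1* (1.19, SE 0.23, edgeR adjusted p = 0.00103), where 10.2% of all genes were called, with a median of 0.59 against 0.01 over all genes. *Lyl1* also stood higher in CD44LowKitPos than in CD44Neg. None of the 10 was called from CD44LowKitNeg to CD44LowKitPos or from there to CD44High, where 4.26% and 3.01% of all genes were called. *Erg*, an ETS factor shared by endothelium and stem cells, was lower in CD44High than in CD44LowKitNeg (−3.11, SE 0.64, edgeR adjusted p = 8.34e-04) and CD44Neg. *Gata2*, the relative of *Gata1*, was at 21.7 ± 10.2, 65.7 ± 18.5, 49.2 ± 16.01 and 19.1 ± 14.3 normalized CPM along the 4 populations, while *Gata1* was at 0, 0, 3.31 ± 5.73 and 67.4 ± 25.4.

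Of 25 relatives of the members, 16 were tested in the first comparison and 3 rose, *Gata6*, *Gata2* and *Ikzf2*, where 10.2% of all genes were called (median 0.49 against 0.01 over all genes). *Ikzf2*, which encodes Helios, the relative of Ikaros, was at 2.14 ± 2.61 normalized CPM in CD44Neg, 40.1 ± 16.5 in CD44LowKitNeg, 88.6 ± 22.5 in CD44LowKitPos and 22.8 ± 22.5 in CD44High. *Ikzf1* was at 0, 5.06 ± 5.60, 85.6 ± 48.5 and 105 ± 29.0 in the same populations. *Gata3* fell from CD44LowKitPos to CD44High (−5.08, SE 1.12, edgeR adjusted p = 0.00549), where it was at 0 to 1.33. None of the 5 small MAF and BACH genes, the partners and competitors of NF-E2, was called in any of the 9 comparisons, where 0.00772% to 16% of all genes were.

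The lineages that the members serve were followed with 3 lists of genes. The summed level of 14 granulocyte and monocyte genes had medians of 33.6, 108, 469 and 3050 normalized CPM in CD44Neg, CD44LowKitNeg, CD44LowKitPos and CD44High, and no library of CD44LowKitPos or CD44High overlapped with the population before it. From CD44Neg to CD44LowKitNeg, where 10.2% of all genes were called, 1 of 4 tested genes rose, *Laptm5*, which encodes a lysosomal membrane protein of blood cells, and their median log2 difference was 0.21. In the E11 libraries of CD44LowKitNeg, where the sum was 130 ± 24.4 against 78.9 ± 37.5 at E9.5 and E10 (n = 3 each), 11 of the 14 genes were at 0, among them *Mpo*, *Elane* and *Csf1r*, and *Laptm5* alone stood at 124 ± 25.5. From CD44LowKitNeg to CD44LowKitPos, 6 of 12 tested genes rose and none fell, where 4.26% of all genes were called. *Mpo*, myeloperoxidase, was at 0.642 ± 1.41 and then 96.3 ± 68.6 (edgeR adjusted p = 7.67e-04), and *Ptprc*, which encodes CD45, at 0.0216 ± 0.0528 and then 78.6 ± 43.6 (edgeR adjusted p = 1.39e-07). From CD44LowKitPos to CD44High 4 of the 12 rose and none fell, where 3.01% of all genes were called, among them *Csf1r*, the macrophage growth factor receptor, at 6.44 ± 4.35 and then 412 ± 221 (edgeR adjusted p = 8.48e-05). *Csf1r* is also 1 of the macrophage markers, whose summed level was higher in CD44High beside *Cebpa*, and their part in these results was not tested.

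The 16 red cell genes, of which 15 were in the table and 9 tested, had summed medians of 94.4, 145, 161 and 465 normalized CPM along the populations. The mean sums of the list were 91.5, 139, 173 and 570. Those of the 6 primitive red cell markers on it were 11.7, 34.2, 17.1 and 63.6, so most of the sum came from its other genes. None was called up to CD44LowKitPos or between CD44LowKitPos and CD44High. Against CD44LowKitNeg, 3 were higher in CD44High, among them *Car1* and *Tfrc*, the transferrin receptor, and against CD44Neg 5 were, where 16% and 14.4% of all genes were called. *Car1*, a carbonic anhydrase of early red cells, was at 0 in the other 19 libraries and at 7.35 to 124 in CD44High. The adult globins *Hba-a1*, *Hba-a2*, *Hbb-bt* and *Hbb-bs* had 0 counts in every population. How reads that match more than 1 gene were counted is not given in the sources used here. These zeros therefore do not show that adult globin RNA was absent. In CD44High, where *Klf1* and *Gata1* were at 23.4 to 163, the summed level of 6 primitive red cell markers was 24.8 to 91.8. It was 7.91 to 26.8 in CD44LowKitPos. In CD44LowKitNeg, with *Gata1* and *Klf1* at 0, this sum was 13.8 to 61.3, which overlaps with CD44High, and the median log2 difference of the 5 markers tested between CD44High and CD44LowKitNeg, of which 1 was called higher and none lower, was −1.13 against 0 over all genes. The part of red cell RNA in these values was not tested.

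The 10 megakaryocyte genes had summed medians of 6.29, 23.3, 140 and 165 normalized CPM along the populations. *Gp1ba*, a platelet glycoprotein, rose from 0.682 ± 1.71 to 14.0 ± 6.72 between CD44Neg and CD44LowKitNeg (edgeR adjusted p = 0.00995). *Pf4*, which encodes a chemokine of platelet granules, rose from 0.392 ± 0.959 to 36.0 ± 20.5 between CD44LowKitNeg and CD44LowKitPos (edgeR adjusted p = 0.00225). In all, 2 of 8 tested genes were higher in CD44LowKitPos and none was lower, where 4.26% of all genes were called, with a median of 4.56 against −0.02 over all genes, or 3.26 with genes of an empty group at their bound. None of the 8 was called between CD44LowKitPos and CD44High.

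**Figure D5:**
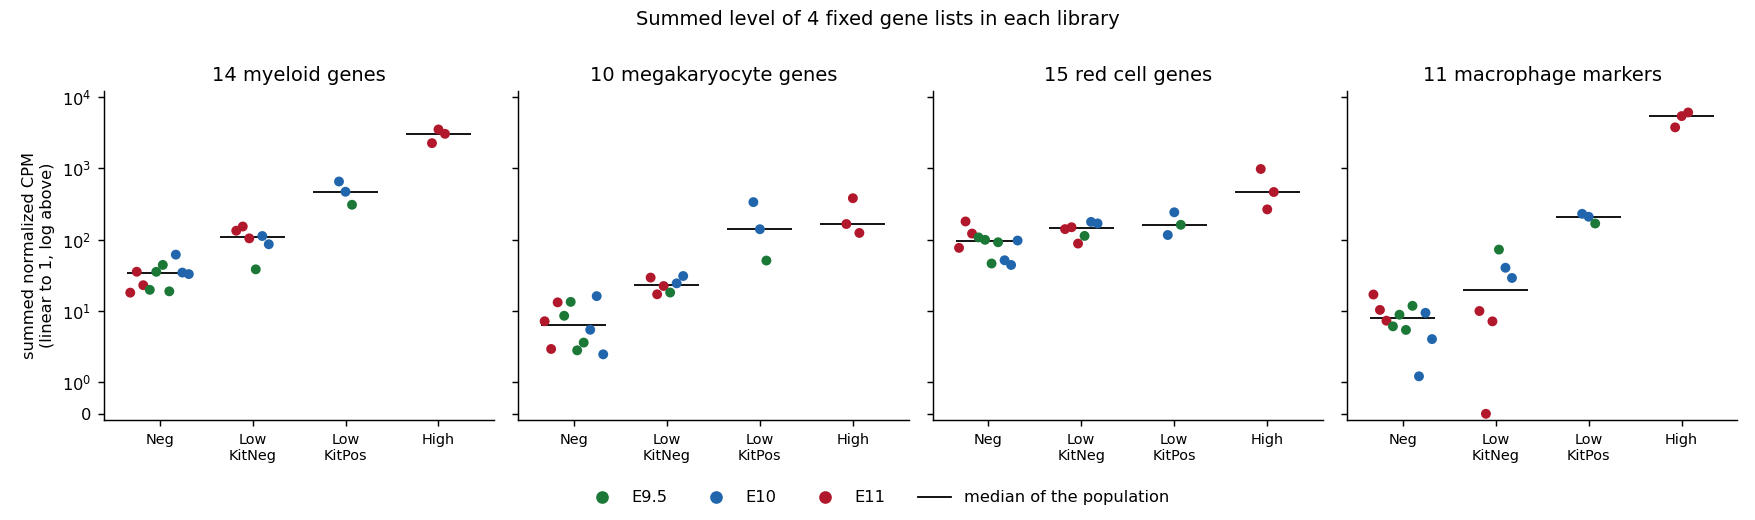
Summed normalized CPM of the myeloid, megakaryocyte, red cell and macrophage marker lists in each library, by population. The axis is linear for the lowest values and log above. The myeloid sum has medians of 33.6, 108, 469 and 3050 along the populations and the megakaryocyte sum of 6.29, 23.3, 140 and 165.

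Across the 22 libraries, the patterns of the members were compared by Pearson's r of log2 CPM, as a description only, since the libraries share populations, stages and depth. *Spi1* and *Nfe2* had r = 0.910, *Gata1* and *Klf1* 0.949, and *Gfi1b* had 0.831 to 0.885 with *Spi1*, *Nfe2*, *Ikzf1* and *Myb*. *Gfi1* and *Gfi1b* had r = 0.233. *Kdm1a* had negative values with all 8 other members tested, from −0.635 with *Gfi1b* to −0.102 with *Gfi1*.

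Over all tested genes, the patterns most like those of the members were named by the same measure, 3 for each. They were *Smc5* (0.854), *Fmr1* and *Psip1* for *Gfi1*, *Treml2* (0.992), *Ptpn22* and *Rnase6* for *Gfi1b*, and *Traf3ip3* (0.933), *Dock2* and *Tnfaip8* for *Spi1*. For *Nfe2* they were *Gucy1a3* (0.929), *Spi1* and *Dock2*, for *Ikzf1* *Pstpip1* (0.963), *Psd4* and *Sla*, and for *Myb* *Alox5ap* (0.910), *Batf* and *Lyz2*. For *Kdm1a* they were *Rassf3* (0.819), *Sema3a* and *Pkp2*, for *Gata1* *Stap1*, *Haao* (0.998) and *Aqp9*, and for *Klf1* *Prss50* (0.990), *Gm1966* and *Zbp1*. *Gfi1* and *Kdm1a* were the members whose nearest pattern had the lowest r, which is all that is read from these values.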

How the data were processed

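The RNA of 25 sorted cells per library was amplified by SMART-Seq2 with 14 PCR cycles. The authors clipped adaptors with FASTX, mapped with RNA STAR, ran htseq-count on Galaxy to count reads for each gene, and deposited the raw counts of 24454 gene symbols, whole numbers without normalization. The submitters' processing notes name FastQC, HTSeq and mm10. The annotation and the strand setting are not given in the sources used here, so counts of overlapping genes cannot be told apart. Per library, 3912350 to 8657546 counts were held, of which *Rn45s*, a pre-ribosomal RNA, made up 1.92% to 23.9%. In 20 pairs of replicates matched for population and stage, counts differed by a chi-square of 17.0 to 85.2 per degree of freedom, which is more than counting error.

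Genes were filtered with filterByExpr (minimum count 10, minimum total 15), scaled by TMM and tested with edgeR 4.0.16 (quasi-likelihood, R 4.3.3, prior count 0.125), with Benjamini-Hochberg adjustment over all genes tested and calls at an adjusted p under 0.01. CD44LowKitNeg was compared with CD44Neg over 16 libraries without a stage term. The other 5 population contrasts came from 1 fit of 22 libraries, and the stage contrasts from a fit of 6 groups of population and stage. The standard error is the log2 fold change divided by the square root of F. Folds against a group at 0 were computed against 3 counts per library, and ratios on 1 to 3 counts have exact Poisson intervals. Correlations used log2 CPM with a prior count of 2. Positions and exon lengths are from GENCODE vM21, and promoters from RefSeq. The alternatives were DESeq2 1.42.0, other filters, stage as a covariate, all 22 libraries, stage-matched libraries, a threshold of 0.05 and leaving out each library. The genes named are the members, the 3 most correlated genes of each tested member, and up to 4 called genes of each list with the smallest adjusted p, some of which are not reported here. Genes given only by their levels were chosen after their values were seen. The members and lists were chosen with earlier results of these data known. The fits were also run on simulated counts, with known changes only in genes above the median level. No outcome of that run is given here, and nothing is read from it for genes with few counts.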

Additional observations from a re-analysis of the deposited data

Results flagged for a closer look

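Single libraries stood apart from the others of their group in 3 of the 16 groups examined. For measurements that vary continuously chance would mark about 1 in 20 groups, a rate that does not hold here, since 1 library above 0 among others at 0 always spans the whole range and 2 of the 3 are the same gene and library in nested groups. In CD44Neg replicate 6, *Gfi1* was at 4.28 normalized CPM, and the next of the 10 libraries was at 0.671. The gap was 0.843 of the whole range. That library also had 1.92% of its counts in *Rn45s*, against 9.11% to 19.3% in the other CD44Neg libraries, and the highest *Spi1* of CD44Neg (3.54). The same library stood apart among the 4 CD44Neg libraries of E9.5, where *Gfi1* was at 4.28 and the others at 0. *Myb* was at 6.07 in CD44Neg replicate 4 and at 0 in the 3 other CD44Neg libraries of E9.5.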

How the results depend on the processing

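Of 60 results on single members, each recomputed under its alternatives (1682 values), 1593 kept their direction and their side of the threshold, 27 lost the call, 42 gained one and 20 changed sign, none of those 20 with a call. Of 20 calls, 12 held under every alternative run. The cause of the changes was not tested. The number of members called between CD44LowKitNeg and CD44Neg (1) became 2 with no filter, 2 with at least 10 counts in 3 libraries, 2 with stage as a covariate, 3 with the Wald test of DESeq2, 4 with all 22 libraries, 3 with E9.5 and E10 alone, 0 with E11 alone and 3 at a threshold of 0.05. Between CD44LowKitPos and CD44LowKitNeg (1) it became 2 with DESeq2 and 6 at 0.05, between CD44LowKitPos and CD44Neg (6) 5 with DESeq2, 5 with stage as a covariate, 5 with E9.5 and E10 alone and 7 at 0.05, between CD44High and CD44LowKitPos (1) 0 with stage as a covariate and 2 at 0.05, between CD44High and CD44LowKitNeg (4) 6 with E11 alone, 5 with stage as a covariate, 5 with DESeq2 (3 higher, 2 lower) and 9 at 0.05 (7 higher, 2 lower), between CD44High and CD44Neg (7) 8 with no filter, 6 with DESeq2 (5 higher, 1 lower), 5 with E11 alone and 8 at 0.05 (7 higher, 1 lower), and between the stages of CD44LowKitNeg (0) 1 with DESeq2 and 2 at 0.05. With each library left out, the 6 population comparisons in the order of the report gave 0 to 2, 1 to 2, 4 to 7, 1 to 2, 3 to 6 and 7 to 8 members, and the 3 stage contrasts 0 to 1, 0 and 0 to 1.

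An adjusted p below is that of the alternative, from DESeq2's Wald test where DESeq2 is named and from edgeR otherwise. Several calls that an alternative ended are listed, some of them also named with their results. They were *Gfi1* in CD44LowKitPos against CD44Neg with E9.5 and E10 alone (0.0116), *Spi1* in CD44LowKitNeg against CD44Neg with E11 alone (0.0470), *Ikzf1* in CD44High against CD44LowKitNeg with stage as a covariate (0.0186) and E11 alone (0.0193), *Myb* in CD44LowKitPos against CD44Neg with DESeq2 (0.0291) and stage as a covariate (0.0294), *Myb* in CD44High against CD44Neg with DESeq2 (0.0348) and E11 alone (0.0270), *Gata1* in CD44High against CD44LowKitNeg with DESeq2 (0.0606) and against CD44Neg with DESeq2 (0.0567) and E11 alone (0.0165), and *Klf1* in CD44High against CD44LowKitPos with DESeq2 (0.0684).

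The sign changed with stage as a covariate for *Gfi1* in CD44High against CD44Neg (1.46) and for *Spi1* (3.71), *Nfe2* (0.96) and *Myb* (0.12) in CD44High against CD44LowKitPos. It changed with E9.5 and E10 alone for *Kdm1a* in CD44LowKitNeg against CD44Neg (−0.25), and with DESeq2's size factors and Wald test for *Nfe2* between the stages of CD44Neg (0.016 and 0.023) and *Ikzf1* between those of CD44LowKitNeg (0.0048 and 0.0070). With each library left out, log2 fold changes spanned 0 for *Spi1* (−0.70 to 0.047), *Nfe2* (−0.56 to 0.058) and *Ikzf1* (−1.6e-05 to 0.83) in CD44High against CD44LowKitPos, *Kdm1a* (−0.012 to 0.18) in CD44LowKitNeg against CD44Neg, *Nfe2* (−5.00 to 0.83) and *Myb* (−0.47 to 6.83) between the stages of CD44Neg, and *Ikzf1* (−0.84 to 2.53) between those of CD44LowKitNeg.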
